A study of Mus musculus with 4 samples.

Results

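The cells described here are the CD45+ cells of mammary glands labelled Balb/c, which entered a pooled single-cell library on hash tag HT10. A hash tag is a short DNA barcode carried by an antibody, which marks all cells of 1 sample before samples are pooled. A barcode was taken as a cell if it held 500 or more unique molecular identifiers (UMIs, each standing for 1 captured RNA molecule) from 300 or more genes, with no more than 10% of them mitochondrial. Their leading tag also had to hold at least 5 counts and at least 2 times the counts of the second tag. By this rule 2538 cells were Balb/c cells, of 21177 cells of that library that passed the filters and 42781 in both libraries of the series. The comparison samples of the same library were Gestation (HT5, 3593 cells), Lactation (HT6, 697 cells), Involution (HT8, 2541 cells) and Regression (HT9, 3284 cells).

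The study profiled immune cells of the mouse mammary gland during pregnancy and lactation. All 5 samples shared the tissue, the digestion with collagenase type 2, the red blood cell lysis, the CD45+ label and the gene library. The names come from the sample sheet deposited for this library, which gives a strain for the Balb/c sample and a reproductive stage for each of the other samples. The stage of the Balb/c animals, the strain of the others, ages, and how many animals each tag pools were not stated in the labels or the sheet. Strain, stage and animal therefore cannot be told apart in any difference below. Each name had 1 pooled sample, so no test between samples was possible, and every 95% interval printed covers counting error only.

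The mammary gland holds T cells, NK cells and other innate lymphocytes at its epithelium, resident macrophages around its ducts and stroma, and B cells whose plasma cell progeny supply antibodies to milk. Inbred mouse strains differ in their major histocompatibility complex (MHC), whose mouse genes are called H2. They also differ in the NK gene complex, which encodes the Ly49 receptors (Klra genes) that bind MHC class I molecules, and the NKR-P1 receptors (Klrb1 genes). BALB/c carries the H-2d haplotype. C57BL/6, the strain of the mm10 reference genome, carries H-2b, in which the promoter of H2-Ea, the gene of the MHC class II E alpha chain, is deleted.

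Since a cell's name rests on its tag alone, the tag barcodes of the 5 samples are shown, 5′ to 3′, as the deposited tag reference gives them. Each is 15 bases long, and capitals mark the bases that differ from the Balb/c tag at the same position.
HT10, Balb/c: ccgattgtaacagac
HT5, Gestation: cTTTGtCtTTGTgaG
HT6, Lactation: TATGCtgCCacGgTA
HT8, Involution: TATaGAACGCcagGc
HT9, Regression: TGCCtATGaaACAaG
HT9 differed from the Balb/c tag at 11 positions and each of the others at 10. Balb/c cells held a median of 51 counts of their own tag and 2 of the second tag. The tag was weaker in Lactation, at a median of 7 counts, and in Gestation, at 13, than in Involution (29) and Regression (67).

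One tag was found for 82.4% of the cells that passed, and 139 cell barcodes passed in both libraries of the series. Doublet calls took 6.74% of the Balb/c cells and 1.58% to 10.6% of the cells in the other samples. The analysed cells numbered 2367 in Balb/c, 3473 in Gestation, 686 in Lactation, 2426 in Involution and 2937 in Regression. The Balb/c cells summed to 9180175 UMIs with a median of 2931 per cell, inside the range of the other samples' medians (2610 to 3184.5). Milk protein genes, a measure of free RNA, summed in T-like cells to a level inside the range of the other samples. Cells classed as epithelial-like, fibroblast-like or endothelial-like, which the CD45+ label would not cover, made up 0.803%, 0.422% and 0.169% of the Balb/c cells.

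The label was first checked against H2-Ea (chr17:34341952-34344645, GRCm38.p6, annotated there as a transcribed pseudogene). In the antigen-presenting classes, meaning the B-like, macrophage-like, monocyte-like and dendritic cell clusters and the Retnla/Lyz1 and Ace/Treml4 myeloid clusters together, 534 Balb/c cells held 5353 H2-Ea UMIs. The comparison samples held 8 UMIs in 1020 Gestation cells, 0 in 135 Lactation cells, 47 in 1237 Involution cells and 217 in 1746 Regression cells. Per 10000 UMIs the level was 18.0 (17.5 to 18.5) in Balb/c, against 0.0242 in Gestation, 0.0901 in Involution and 0.341 in Regression. The transcript that H-2b mice lack was thus read in the sample labelled Balb/c, and its level there was 52.9 times the level in Regression, the nearest sample. In the series' other library, whose title names no Balb/c sample, H2-Ea had 0 of 50906081 UMIs while H2-Eb1, which encodes the partner E beta chain, had 82842.

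H2-Ea was spread over many Balb/c cells, while most of its UMIs in Involution and Regression lay in few cells. Of the Balb/c antigen-presenting cells, 211 (39.5%) held 5 or more H2-Ea UMIs, against 0 in Gestation, 0 in Lactation, 3 in Involution and 7 in Regression. Those 7 Regression cells held 88.0% of the Regression UMIs of the gene. With every cell thinned to 2000 UMIs, 56.6% of 429 Balb/c cells had an H2-Ea UMI, and 105 cells were too shallow to thin. The same share was 0.772% in Gestation, 0 of 110 cells in Lactation (an upper bound of 3.30%), 0.805% in Involution and 1.44% in Regression. In the T-like, NK-like and Gzmc/Itgae classes together, whose kinds of cell carry little class II in the mouse, H2-Ea stood at 0.0708 per 10000 in Balb/c and at 0.0213 to 0.0626 in the other samples.

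**Figure D1:**
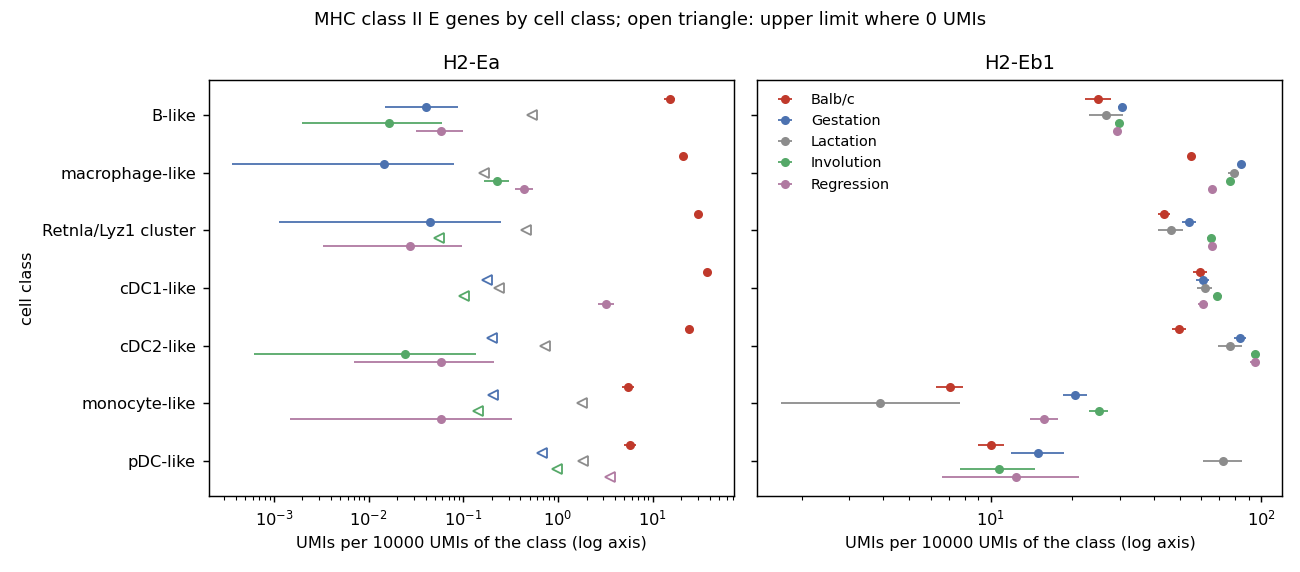
Levels of H2-Ea (left) and H2-Eb1 (right) in UMIs per 10000 UMIs of each cell class, on a log axis, with exact 95% Poisson intervals. Points are the 5 pooled samples and open triangles mark the upper limit where 0 UMIs were counted. Balb/c stands to the right of every other point for H2-Ea, and is the leftmost point for H2-Eb1 in every class drawn except monocyte-like, where Lactation is lowest.

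Within Balb/c the level of H2-Ea differed between classes. It was highest in cDC1-like cells, dendritic cells that cross-present antigen, at 37.1 per 10000 in 24 cells. The Retnla/Lyz1 cluster, a myeloid cluster named by its leading genes, followed at 29.9, then cDC2-like cells at 24.0, macrophage-like cells at 20.7 and B-like cells at 15.1. The level was lower in pDC-like cells (5.77), monocyte-like cells (5.48) and migratory DC-like cells (4.23), whose intervals overlapped. Of the antigen-presenting classes it was lowest in the Ace/Treml4 cluster, at 2.37 (1.63 to 3.33). H2-Eb1 in Balb/c B-like cells stood at 25.0 (22.4 to 27.7), overlapping Lactation (26.7) and just under the other samples (29.3 to 30.5). H2-Aa and H2-Ab1, the chains of the class II A molecule, stood at 50.01 and 25.5 in those cells, against 41.0 to 43.6 and 26.2 to 29.9. H2-Eb1 lay further below the others in macrophage-like cells, at 54.8 (53.5 to 56.2) against 65.8 to 84.5. In cDC2-like cells it stood at 49.6 (46.8 to 52.5) against 77.0 to 94.6, and in cDC1-like cells at 59.3 against 60.9 to 68.8. In B-like and macrophage-like cells none of these 3 genes passed the rule for a call that is given next.

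For all other genes a fixed fold stood in for a test. UMIs were summed per class and sample, with 3 counts as the lowest level used. A gene was called where its Balb/c level lay at least 2-fold above the highest or at least 2-fold below the lowest of the 4 other samples, among genes with at least 50 UMIs. The classes with at least 20 cells in each sample numbered 6, and over them 183 calls were higher and 452 lower in Balb/c. Without the Lactation sample, whose sum was the smallest in 4 of the 6 classes, 697 calls were higher. In small sums a gene with few counts can pass that fold by counting error, so genes are named from the 120 higher and 142 lower calls whose Poisson intervals in Balb/c and the nearest sample were also apart.

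The makeup of the Balb/c sample was led by a cluster whose top genes were Gzmc, Itgae, Gzmb, Klra5, Cd7 and Gzma. These encode granzymes, which are proteases of cytotoxic granules, and CD103, the integrin chain that holds lymphocytes at epithelium. The cluster mixed T cell, NK and ILC1 marker genes and was given no cell type name. It held 834 Balb/c cells, a share of 35.2% (33.3 to 37.2), against 281 cells (8.09%) in Gestation, 112 (16.3%) in Lactation, 64 (2.64%) in Involution and 42 (1.43%) in Regression. Balb/c was above every other sample, 2.16 times (1.77 to 2.65) the share in Lactation and 24.6 times (18.1 to 34.4) that in Regression. Balb/c cells made up 62.6% of the cluster's cells in the 5 samples. When the granzyme and residency genes were left out of the clustering, the share was 29.3% in Balb/c and 1.5% to 13.6% in the others.

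B-like cells, led by Ms4a1 and Cr2, were fewest in Balb/c. They made up 2.70% (2.09 to 3.44) of Balb/c cells, or 64 cells, against 19.9% in Gestation, 4.52% in Lactation, 23.0% in Involution and 37.7% in Regression. The gap was smallest to Lactation, where the ratio of Balb/c to Lactation was 0.598 (0.384 to 0.951). Among cells outside the Gzmc/Itgae cluster the B-like share was 4.17% in Balb/c, again nearest to Lactation (5.40%). Under a tag minimum of 10 counts Lactation fell below Balb/c. Plasma-like cells, the antibody secretors, were 0.634% of Balb/c cells, above Gestation (0.115%) and Lactation (0.146%) and below Involution (2.02%) and Regression (2.42%).

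T-like cells made up 20.9% (19.2 to 22.6) of the Balb/c cells, next to Regression at 22.1% and below Involution (29.8%), Gestation (48.4%) and Lactation (48.4%). The intervals of Balb/c and Regression overlapped. Among cells outside the Gzmc/Itgae cluster the T-like share was 32.2% in Balb/c, inside the range of the others (22.5% to 57.8%). Of the Balb/c T-like cells, 70.2% lay in the cluster led by Cxcr3, a chemokine receptor of activated T cells, and Cd28. That share was 85.2% in Lactation and 29.1% to 39.8% in the other samples. The cluster led by Dapl1 and Lef1, genes of naive T cells, held 15.6% of the Balb/c T-like cells, against 6.93% in Lactation and 39.5% to 52.9% in the rest. For both T cell clusters Balb/c thus lay between Lactation and the other samples. Regulatory T cells, the cluster led by Foxp3, made up 8.70% of Balb/c T-like cells, inside the range of the others (5.72% to 10.8%).

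Several less common classes were more frequent in Balb/c than in every other sample. Neutrophil-like cells made up 4.6% (3.8 to 5.53), or 109 cells, against 0.720% in Gestation, 0.729% in Lactation, 0.660% in Involution and 0.647% in Regression. The Balb/c share was 6.32 times (2.63 to 19.8) that of Lactation, the nearest. The pDC-like cells, plasmacytoid dendritic cells that make type I interferon, made up 2.15% (51 cells) in Balb/c. They were 0.288% in Gestation, 0.292% in Lactation, 0.330% in Involution and 0.0681% in Regression, each from 2 to 10 cells. The ILC2-like cells, innate lymphocytes of type 2 immunity, made up 3.25% (77 cells), against 0.317% in Gestation and 0.953% to 1.07% in the others. Monocyte-like cells stood at 3.34% (2.65 to 4.14), against 1.90% (1.39 to 2.52) in Involution and 0.729% to 0.95% in the others. In these classes the Balb/c interval lay clear of all 4 others. Some of these values depended on how cells were classed. From marker UMIs cell by cell, the monocyte-like share of 6.51% in Balb/c was inside the range of the other samples. The ILC2-like share was then 1.27% against 0.202% to 0.660%, and the pDC-like share 1.44% against 0.102% to 0.292%.

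NK-like cells differed less as a share of all cells. They made up 7.82% (6.77 to 8.97) of Balb/c cells, 6.88% (6.06 to 7.77) in Gestation, 6.56% in Lactation, 5.89% in Involution and 5.72% in Regression. When the Klra, H2 and receptor variable genes were kept in the clustering, Balb/c had the lowest share, 4.18%, against 4.25% to 5.25%. The order of the NK-like shares thus turned with the genes used to form the class. Among cells outside the Gzmc/Itgae cluster the NK-like share was 12.1% (10.5 to 13.8) in Balb/c, clear of the others at 5.8% to 7.84%, of which Lactation had the highest upper limit (10.3%).

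**Figure D2:**
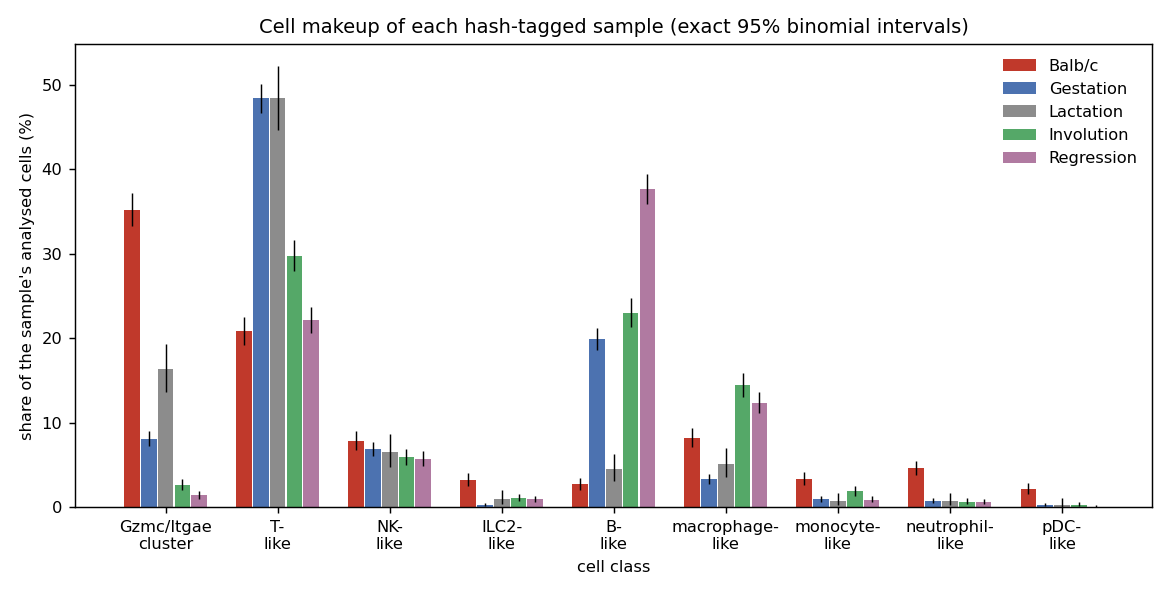
Share of each sample's analysed cells in 9 cell classes, in percent, for the 5 pooled samples, with exact 95% binomial intervals as error bars. Balb/c stands above the other bars for the Gzmc/Itgae cluster and for the ILC2-, monocyte-, neutrophil- and pDC-like classes, and its B-like bar is the lowest.

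Macrophage-like cells, which expressed complement C1q and Csf1r, made up 8.24% of Balb/c cells. This was inside the range of the others, between 3.31% in Gestation and 14.4% in Involution. The macrophages fell into 3 clusters, over which Balb/c was distributed unlike Involution and Regression. The cluster led by Mmp12 and H2-M2 held 58.5% of them (114 of 195 cells), against 47.0% in Gestation, 42.9% in Lactation, 16.6% in Involution and 7.71% in Regression. Its share of all cells, 4.82% (3.99 to 5.76), was 2.01 times (1.46 to 2.81) that of Involution, the nearest. The cluster led by Folr2 and Cd209f, genes of stromal resident macrophages, held 16.9% of Balb/c macrophages, against 20.9% to 51.8% elsewhere. For both of these shares of macrophages the Balb/c interval overlapped Gestation and Lactation and lay clear of Involution and Regression. H2-M2 was lower in the Balb/c cells of the cluster that it helps to name. Its level there was 1.46 per 10000, against 4.20 to 4.44 in Gestation, Involution and Regression.

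The receptors that differ between strains stood out first in NK-like cells, of which Balb/c had 185. The 8 measured Ly49 genes had a median log2 ratio of Balb/c to the mean of the other samples of -2.09, against 0.08 over all 6345 measured genes. Of those 8 genes 5 were called lower in Balb/c and 0 higher, while 0.898% of all measured genes were called lower and 0.41% higher. With intervals apart the shares of all genes were 0.441% (28 genes) and 0.236% (15 genes). Klra4, an activating Ly49 receptor gene, stood at 0.823 UMIs per 10000 in Balb/c, 4.11 in Gestation, 4.93 in Lactation, 6.78 in Involution and 4.6 in Regression. Balb/c was below every other sample, 4.99-fold (3.67 to 6.93) under Gestation.

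Klra8, which encodes the activating receptor Ly49H of C57BL/6 mice, stood at 0.455 in Balb/c and at 3.01, 6.13, 4.97 and 4.26 in Gestation, Lactation, Involution and Regression. Balb/c was 6.62-fold (4.41 to 10.3) under Gestation, and 1 cell held 23.1% of its 26 UMIs. Klra9 stood at 0.438 in Balb/c against 2.14 to 3.25. Klra7 stood at 1.16 against 3.58 to 4.09, and the pseudogene Klra13-ps at 1.42 against 2.89 to 3.91. Klra1 (0.788 against 0.801 to 1.61) and Klra3 (1.45 against 0.713 to 1.63) were not called. The family thus moved unevenly, with Klra3 inside the range of the other samples. The Klra genes are near-identical copies in 1 cluster on chromosome 6, so counts may be split between them and values of single members are uncertain. Their counts, and those of the Klrb1 genes, also rest on the C57BL/6J reference. The part of sequence differences between strains in these receptor levels was not tested.

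Among the NKR-P1 and NKG2 receptor genes, 2 of 11 measured in NK-like cells were called lower. Klrb1c, which encodes the NK1.1 antigen of C57BL/6 mice, stood at 2.98 in Balb/c, 9.34 in Gestation, 8.06 in Lactation, 7.63 in Involution and 7.59 in Regression. Klrb1b, which encodes an inhibitory NKR-P1 receptor, stood at 0.280 against 1.15 to 2.04. Klrd1 (CD94) at 9.59 against 6.60 to 8.15, Klrc1 (NKG2A) at 3.15 against 1.82 to 2.87, and Klrk1 (NKG2D) at 5.57 against 7.17 to 8.0 were not called. Of these, Klrd1 and Klrc1 lay above every other sample and Klrk1 below, each by less than 2-fold.

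Cytotoxic genes of the Balb/c NK-like cells were close to those of the other samples, while several other genes were not. Of 9 measured cytotoxic genes 0 were called, with Gzma at 53.3 per 10000 in Balb/c against 35.1 to 57.5, and Prf1, the gene of perforin, at 7.02 against 5.25 to 7.04. Ncr1, which encodes the activating receptor NKp46, stood at 10.7 (9.90 to 11.6) in Balb/c and 4.46 to 7.16 elsewhere, above every other sample but under 2-fold. Ccl4, a chemokine, stood at 24.2 against 8.72 to 13.9 and was not called either. Beyond the receptors, Gfra2, a GDNF family receptor gene, had 54 UMIs in Balb/c and 1, 0, 1 and 1 in the others. Cbfa2t3, a transcriptional corepressor gene, had 2 UMIs in Balb/c and 58, 18, 54 and 42 in the others, a ratio of 0.0475 (0.00562 to 0.179) to Gestation.

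In the Gzmc/Itgae cluster 23 genes (0.276% of 8323) were called higher in Balb/c and 52 (0.625%) lower, of which 21 (0.252%) and 29 (0.348%) had intervals apart. The Ly49 family moved in both directions there, with 1 of 8 measured members called higher and 3 lower. Klra5, one of the genes that lead the cluster, stood at 3.22 per 10000 in Balb/c, 1.20 in Gestation, 1.30 in Lactation, 1.09 in Involution and 0.455 in Regression. In NK-like cells the same gene had 12 Balb/c UMIs and fell under the minimum. Klra6 (0.116 against 0.257 to 1.17), Klra8 (0.0542 against 0.153 to 0.455) and Klra9 (0.213 against 0.565 to 1.30) were called lower, with intervals apart for Klra9.

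Klrb1c was lower in this cluster as well, at 0.932 in Balb/c, 4.74 in Gestation, 4.78 in Lactation, 4.08 in Involution and 4.75 in Regression, or 4.38-fold (3.51 to 5.44) under Involution. Klre1, which encodes a partner of the Klri receptors, stood at 1.86 against 3.96 to 6.39. With cells thinned to 2000 UMIs, 13.9% of 662 Balb/c cells had a Klrb1c UMI, against 48.3% to 58.3% in the other samples. The unthinned shares were 17.3% and 59.5% to 74.7%, at medians of 3046.5 UMIs in Balb/c and 2716 to 4694.5 in the others. In B-like cells, which should lack the gene, the thinned share was at most 1.43%, at a median of 1941 to 2116 UMIs.

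**Figure D3:**
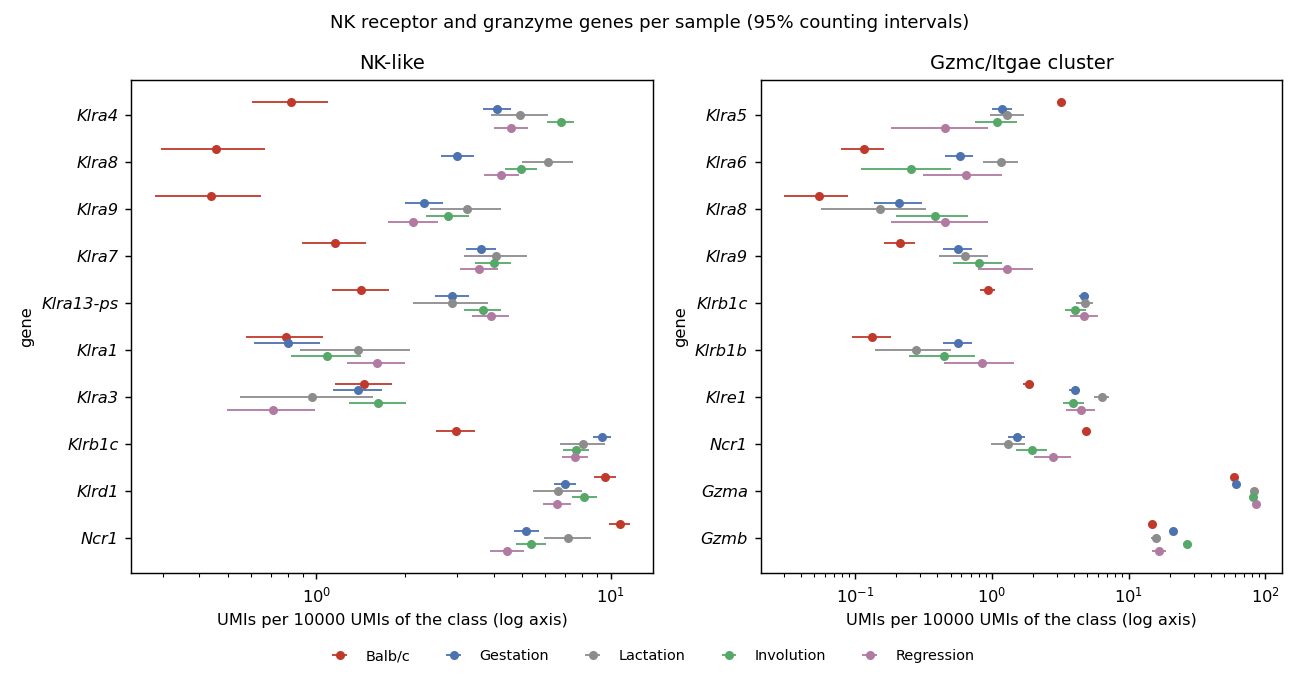
Levels of NK receptor, Ncr1 and granzyme genes in NK-like cells (left) and in the Gzmc/Itgae cluster (right), in UMIs per 10000 UMIs of the class on a log axis, with exact 95% Poisson intervals. Each point is 1 of the 5 pooled samples. In NK-like cells Balb/c is the leftmost point for Klra4, Klra8, Klra9, Klra7, Klra13-ps, Klra1 and Klrb1c, and the rightmost for Klrd1 and Ncr1. In the cluster it is leftmost for Klra6, Klra8, Klra9, Klrb1b, Klrb1c, Klre1, Gzma and Gzmb, and rightmost for Klra5 and Ncr1.

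The cluster was formed on the granzyme and residency genes that lead it, so their levels within it describe the cluster and do not test its program. Of 9 measured cytotoxic genes 0 were called, with a median log2 ratio of -0.10 against 0.11 over all measured genes. Gzma stood at 59.4 in Balb/c and 61.5 to 84.8 elsewhere, and Gzmb at 14.7 against 15.9 to 26.6. Of 19 measured intraepithelial and residency genes 0 were called, with Itgae at 9.14 against 5.85 to 9.11.

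Inside the cluster more Balb/c cells had an Ncr1 UMI, and fewer had a Trac UMI, than in any other sample. Thinned to 2000 UMIs, 55.1% (51.3 to 59.0) of Balb/c cells had an Ncr1 UMI, against 19.5% in Gestation, 17.5% in Lactation, 30% in Involution and 27.8% in Regression. For Trac, the constant segment of the T cell receptor alpha chain, the share was 15.6% (12.9 to 18.5) in Balb/c and 35.1%, 48.5%, 28.3% and 38.9% in the others. For Cd3e, which alpha-beta and gamma-delta T cells share, it was 44.7% in Balb/c against 46.7% to 76.3%. The Balb/c interval overlapped that of Involution for both Trac and Cd3e. For Trdc, the constant segment of the delta chain, the share was 24.3% (21.1 to 27.8) in Balb/c against 13.9% to 22.2%, clear of Gestation only. Unthinned, the shares in Balb/c were 62.1% for Ncr1, 23.9% for Trac and 49.2% for Cd3e. In B-like cells the thinned shares were at most 1.43% for Ncr1, 1.80% for Trac and 3.33% for Cd3e. As levels, Ncr1 stood at 4.85 in Balb/c against 1.32 to 2.8 and Trac at 1.43 against 2.86 to 3.84, and neither was called. Of 15 measured ILC1 and NK cell genes 0 were called and 7 lay above the mean of the other samples. That list's median log2 ratio was -0.15 against 0.11 over all measured genes, so the list did not follow Ncr1. How far other differences in the cluster follow these shares was not tested.

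Il18r1, the receptor chain that binds interleukin 18, was called higher in the cluster, at 0.676 in Balb/c against 0.0650 to 0.225, with 187 UMIs in Balb/c. The type 1 immunity list, to which it belongs, had a median log2 ratio of 0.12, next to that of all measured genes (0.11).

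Genes nearly specific to the Balb/c cells of the cluster included Itln1, which encodes intelectin-1, a lectin that binds microbial glycans. It had 269 UMIs in Balb/c, 1 in Involution and 0 in each of Gestation, Lactation and Regression, and was at least 4.98-fold higher than in Regression, whose sum was the smallest. Ada, the gene of adenosine deaminase, had 182 UMIs in Balb/c and 6, 3, 1 and 0 in Gestation, Lactation, Involution and Regression. Spp1, which encodes osteopontin, was called higher without being specific to Balb/c, at 0.824 against 0.0643 to 0.356. Among the lower genes, Coro2a, a coronin family gene, stood at 0.177 in Balb/c, 1.62 in Gestation, 2.11 in Lactation, 1.77 in Involution and 1.82 in Regression, or 9.12-fold (6.64 to 12.7) under Gestation. Arhgap31, which encodes a GTPase-activating protein, had 11 UMIs in Balb/c and was 5.69-fold (2.74 to 12.7) under Gestation.

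In the T-like cells of the Cxcr3/Cd28 cluster 44 genes (0.526% of 8360) were called higher in Balb/c and 82 (0.981%) lower, of which 24 (0.287%) and 37 (0.443%) had intervals apart. Among the genes known to vary between strains, Ly6a, which encodes the surface antigen Sca-1, stood at 0.326 in Balb/c, 1.14 in Gestation, 2.10 in Lactation, 1.10 in Involution and 1.05 in Regression. Apobec3, a restriction factor against retroviruses, stood at 0.831 against 1.84 to 2.39. Ly6c1, by contrast, was higher in Balb/c, at 0.303 against 0.0271 to 0.0940. Of the 9 measured genes of that list 4 were called lower and 1 higher.

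A few receptor genes of innate lymphocytes were called higher in these T-like cells. Ncr1 stood at 1.47 in Balb/c, 0.221 in Gestation, 0.244 in Lactation, 0.334 in Involution and 0.444 in Regression. Klra5 stood at 0.640 against 0.0541 to 0.197, and Cd244a, which encodes the receptor 2B4, at 0.965 against 0.301 to 0.404. Over all T-like cells thinned to 2000 UMIs, 9.91% of Balb/c cells had an Ncr1 UMI, against 1.32% to 2.43%, with an unthinned 12.3% against 2.50% to 4.62%. The lists as a whole did not follow these genes. Of 14 measured ILC1 and NK cell genes Ncr1 alone was called, 6 lay above the mean of the other samples, and the median log2 ratio was -0.04 against 0.09 over all measured genes. Of 9 measured Ly49 genes Klra5 was called higher and Klra6 lower, with a median of -1.10. Of 9 measured NKG2, CD94 and NKR-P1 genes and 10 measured cytotoxic genes 0 were called. Whether cells of the Gzmc/Itgae kind inside the T-like cluster carried these counts was not tested.

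Other genes called higher in this cluster were Dnah17, an axonemal dynein gene, with 43 UMIs in Balb/c and 1 to 5 elsewhere, and Ctse, which encodes cathepsin E, at 0.730 against 0.0470 to 0.144. Prelid2 stood at 0.393 against 0.0278 to 0.0812, and Cited4, a transcriptional coregulator gene, at 0.382 against 0.0784 to 0.0974. Among the lower genes Baiap3 had 3 UMIs in Balb/c and 31 to 89 in the others, a ratio of 0.0805 (0.0163 to 0.243) to Gestation, and was also lower in NK-like cells and in the Gzmc/Itgae cluster. Camk2n1, which encodes an inhibitor of the kinase CaMKII, had 2 UMIs in Balb/c and 15 to 59 elsewhere.

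The naive T-like cells of the Dapl1/Lef1 cluster, 77 in Balb/c and 23 in Lactation, had 10 higher calls (0.128% of 7816) and 105 lower calls (1.34%). Of these, 8 (0.102%) and 15 (0.192%) had intervals apart. Of 24 measured interferon-stimulated genes 3 were called lower and 0 higher, and the list's median log2 ratio was -0.80 against -0.17 over all measured genes. Ifi213 and Ifi209, of the interferon-inducible gene family on chromosome 1, stood at 0.232 and 0.556 in Balb/c, against 0.670 to 1.22 and 1.20 to 1.78. Zbp1, a sensor of Z-form nucleic acid, had 1 UMI in Balb/c, 92 in Gestation, 1 in Lactation, 68 in Involution and 40 in Regression, so that Balb/c and Lactation were both under the floor. Ifi213 was also called lower in the Gzmc/Itgae cluster, the Cxcr3/Cd28 cluster and B-like cells. Smc6, a genome maintenance gene, stood at 5.84 in Balb/c, 1.96 in Gestation, 1.30 in Lactation, 1.71 in Involution and 2.19 in Regression. Commd7 stood at 1.67 against 0.459 to 0.517, and Adgre5, which encodes the adhesion receptor CD97, at 3.33 against 1.12 to 1.36. Of 12 measured genes of naive and recirculating T cells 0 were called, with Lef1 at 4.96 against 3.74 to 4.27.

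The 64 Balb/c B-like cells had 24 higher calls (0.292% of 8207) and 63 lower calls (0.768%), of which 11 (0.134%) and 18 (0.219%) had intervals apart. After H2-Ea, Smc6 was among the clearest of the higher genes, at 7.31 in Balb/c, 1.65 in Gestation, 1.29 in Lactation, 1.64 in Involution and 1.69 in Regression, or 4.33-fold (3.45 to 5.40) above Regression. Members of the Ly6 family of surface proteins were lower. Ly6d stood at 2.90 against 8.92 to 11.0, Ly6e at 6.08 against 17.9 to 20.6, and Ly6a at 0.507 against 1.44 to 3.28, the last without intervals apart and with 57.1% of its 7 Balb/c UMIs in 1 cell. Apobec3 stood at 1.16 against 3.31 to 4.95, as in T-like cells below every other sample. Il4ra, the receptor chain for interleukin 4, stood at 0.796, from 11 UMIs, against 1.63 to 2.16.

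The maturation state of the B-like cells was not set apart by its listed genes. Of 14 measured B cell subset genes 0 were called. Ighd, the IgD heavy chain of naive B cells, stood at 14.8 against 14.8 to 17.4, Fcer2a (CD23) at 6.51 against 6.32 to 7.75, and Cr2 (CD21) at 4.20 against 1.58 to 5.74. Balb/c B-like cells were thus few but close to the others in these genes.

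In macrophage-like cells 56 genes (0.62% of 9033) were called higher in Balb/c and 93 (1.03%) lower, of which 41 (0.454%) and 15 (0.166%) had intervals apart. Cxcl14, which encodes a chemokine of epithelia and myeloid cells, had 146 UMIs in Balb/c, 1 in Gestation, 2 in Lactation, 17 in Involution and 13 in Regression, or 13.9 times (3.79 to 116) the level in Lactation. Ifi202b, an interferon-inducible gene known to vary between strains, had 85 UMIs in Balb/c and 0, 0, 0 and 3 in the others. Hal, which encodes histidine ammonia-lyase, had 72 UMIs in Balb/c and 0, 0, 1 and 3. Ifi44 stood at 0.872 against 0.0904 to 0.219. The other 29 measured genes of the interferon-stimulated list were not called, and the list's median log2 ratio was -0.47 against 0.01. Outside that list, the related gene Ifi44l was called higher, and Epsti1 and Calhm6 were called lower, each with intervals apart. Of the lower genes, Mertk, which encodes a receptor for apoptotic cells, stood at 0.259 in Balb/c, 0.620 in Gestation, 0.633 in Lactation, 0.706 in Involution and 0.656 in Regression. The peptide transporter gene Slc15a2 stood at 0.0777 against 0.239 to 0.452.

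Genes of stromal resident macrophages were lower as a group without a call. Of 13 measured 0 were called, all 13 lay below the mean of the other samples, and the median log2 ratio was -0.78 against 0.01. Other lists were lower too. The median was -0.89 for alternative activation genes (1 of 9 above that mean) and -0.84 for immunoglobulin genes (0 of 8). It was -0.50 for H2 genes (1 of 20), of which H2-Ea alone was called. Lists that went the other way included cell cycle genes (0.70, 15 of 15) and cytotoxic genes (1.10, 7 of 8). Mrc1, the mannose receptor gene, stood at 6.83 in Balb/c, near Gestation (7.67) and Lactation (7.82) and below Involution (17.2) and Regression (17.9). The macrophage clusters were mixed in other proportions in Balb/c, as given above, and the part of that mixture in these list results was not tested. Genes of T and NK cells were higher in the same sums, among them Itgae (0.526 against 0.0452 to 0.173) and Cd7 (1.73 against 0.136 to 0.612). The 7 NK marker genes summed to 5.27 per 10000 in Balb/c and 0.994 to 2.82 elsewhere, with Eomes and S1pr5 at 0 in Lactation. The 6 T cell markers, none at 0, summed to 4.34 against 1.63 to 2.89. The 6 B cell markers went the other way, at 0.570 in Balb/c against 0.994 to 2.66, with Pax5 at 0 in Lactation. The part of lymphocyte RNA in the macrophage-like results was not tested. Within the Mmp12/H2-M2 cluster alone, without the 15 Lactation cells, H2-Ea (8.23-fold), Cxcl14 (4.34-fold) and Ifi44 (2.25-fold) were still called higher and Mertk (2.19-fold) lower, and Itgae was called higher (2.57-fold) as well. H2-M2 was called lower there (2.87-fold). Ifi202b, Hal and Slc15a2 fell under the minimum of 50 UMIs there.

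Smaller classes held too few cells elsewhere for calls, so their values are given alone. In monocyte-like cells Chil3, a chitinase-like protein gene of classical monocytes, stood at 1.51 in 79 Balb/c cells, 14.8 in 33 Gestation cells, 9.73 in 5 Lactation cells, 5.48 in 46 Involution cells and 7.95 in 27 Regression cells, with 26.2% of the Balb/c UMIs in 1 cell. Ly6c2, a surface antigen gene of the same monocytes, stood at 7.57 in Balb/c against 10.6 to 22.4. In ILC2-like cells Areg, the growth factor amphiregulin, stood at 1.70 in 77 Balb/c cells and at 16, 9.25, 3.08 and 5.29 in Gestation, Lactation, Involution and Regression. One cell held 33.3% of the Balb/c Areg UMIs. Gata3, their defining transcription factor, stood at 13 in Balb/c against 7.57 to 11.3. Cd3e, a T cell gene, stood at 3.23 in the Balb/c ILC2-like cells against at most 1.44, and its part in the ILC2-like share was not tested.

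The classical MHC class I genes lay outside the range of the other samples, H2-K1 below and H2-D1 above, each by less than 2-fold. The part of sequence differences between strains in these levels was not tested. Over all analysed cells H2-K1 stood at 15.5 in Balb/c against 17.6 to 25.7, and H2-D1 at 19.7 against 13.2 to 16. The nonclassical genes H2-Q6 and H2-Q7, of the Qa-2 antigens, were lower, at 0.466 against 1.65 to 2.68 and at 1.60 against 3.21 to 6.85. H2-Q6 and H2-Q7 are near-identical, so their single values are uncertain, and their summed level was 2.06 in Balb/c against 4.86 to 9.54.

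Most called genes were called in 1 class, and a smaller set in class after class. With intervals apart, 161 genes were called in at least 1 of the 6 classes, 82 of them higher and 79 lower, and 0 were higher in one class and lower in another. Of the higher genes 67, and of the lower genes 49, were called in 1 class only. Some of these, such as Itln1, Cxcl14 and Mertk, met the minimum of UMIs in 1 class only and so could not recur. In contrast, 8 genes were higher in at least 4 classes. Mid1, a ubiquitin ligase gene at the X chromosome's pseudoautosomal boundary, stood at 1.39 to 1.95 in Balb/c over the 6 classes and at 0 to 0.331 in the others. Dnah8 and Glo1, which encode a dynein chain and glyoxalase 1, are neighbours on chromosome 17 (chr17:30626935-30875762 and chr17:30592861-30612659). They stood at 0.582 to 2.32 and 0.579 to 1.35 in Balb/c, over the classes where each was measured, against 0 to 0.636 and 0.215 to 0.487. Cyth1, which encodes the ARF exchange factor cytohesin-1, stood at 2.61 to 3.60 against 0.565 to 2.60.

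Of the lower genes, 10 were called in at least 4 classes, among them H2-Q6, H2-Q7, Ly6e and Ifi209. Trim12a and Trim5, antiviral TRIM family genes, are neighbours on chromosome 7 (chr7:104299893-104315558 and chr7:104263386-104288254). Trim12a stood at 0.112 to 0.507 in Balb/c against 0.551 to 1.98, and Trim5 at 0.0337 to 0.104 against 0.136 to 0.735. Trim12c, a close relative of Trim12a, stood at 0.656 over all cells in Balb/c against 0.728 to 0.844, so the pair summed to 0.804 against 1.74 to 1.83. Gm1966, an interferon-inducible GTPase-like gene on the same chromosome, stood at 0.281 to 0.941 against 0.937 to 4.99.

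Several recurrent genes are copies of other genes, for which counting is uncertain. The ribosomal protein gene Rpl26 stood at 3.71 over all Balb/c cells against 16.05 to 18.6, while the pseudogene Gm15772 (chr5:3236390-3236928) stood at 5.2 against 0.0199 to 0.138. The pair summed to 8.90 in Balb/c and 16.1 to 18.7 in the others, a smaller gap than for Rpl26 alone. Tpm3 and its copy Tpm3-rs7 summed to 3.94 in Balb/c against 3.01 to 3.25, with Tpm3-rs7 at 1.26 against 0.0348 to 0.0632. Rps18 and Rps18-ps6 summed to 15.6 against 23.7 to 30.9. Rpl29 stood at 2.44 against 8.41 to 10.8. The deposited counts rest on the C57BL/6J reference, and the part of sequence differences between strains in these counts was not tested.

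**Figure D4:**
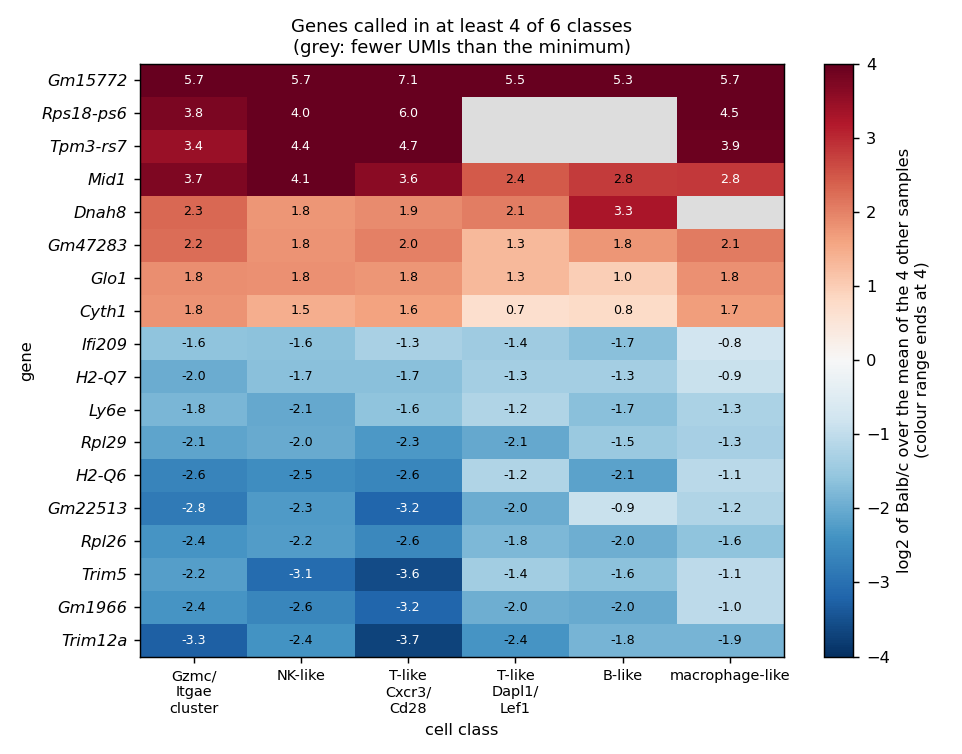
Log2 ratio of the Balb/c level to the mean level of the 4 other samples for the 18 genes called with intervals apart in at least 4 of 6 cell classes. Rows are genes, columns are classes, red is higher in Balb/c, blue is lower, the printed value is the ratio and grey marks genes under the minimum. Every gene keeps 1 direction in the classes drawn.

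The called genes were described by position as well. Of the 155 called genes with a RefSeq position, 9.68% lay on chromosome 6, which holds the NK gene complex, against 5.19% of 9902 measured genes. On chromosome 17, which holds the MHC, the shares were 7.74% and 5.10%, and on chromosome 1 they were 7.74% and 5.98%. Other chromosomes also held larger shares of called than of measured genes, among them chromosome 14 (5.81% and 3.55%), chromosome 8 (7.10% and 5.28%) and chromosome 12 (4.52% and 3.35%). The remaining called genes were spread over all other autosomes and the X chromosome, so most calls lay outside the Klra and H2 regions.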

How the data were processed

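CD45+ cells of mouse mammary glands were profiled with a 10x gene library and a matched hash tag library. The deposited matrices hold whole-number UMI counts per gene or tag and barcode, made by the authors with Cell Ranger 6.1.0 on mm10, per the submitters' processing notes. The gene matrix was already limited to called barcodes as deposited. Positions came from RefSeq for GRCm38.p6.

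Cells and tags followed the thresholds given above. Doublets were removed with Scrublet at an expected rate of 0.08, together with clusters made of doublets. Cells of 7 tags were clustered with scanpy 1.11.5 and leidenalg 0.10.2 (2000 variable genes, 30 components, 15 neighbours, resolution 1), leaving out Klra, H2 and immune receptor variable genes. Other genes that differed in Balb/c in class after class were not left out, and their part in the cell shares was not tested. Clusters were named from marker lists, and values are UMIs per 10000 of a class's sum. Intervals are exact binomial or Poisson intervals of 95%. Scripts were tested on simulated data.

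Genes named are list members the text describes, genes that lead a cluster, and per class and direction the 8 called genes farthest from the nearest sample, with intervals apart and at most 20% of the UMIs of the higher sample in 1 cell. The cells, lists and rules were chosen with earlier results of these data known. Alternatives changed the tag rule, mitochondrial limit, doublet removal, clustering, scaling, minimum, fold and samples used. The Germ-free and GF samples entered the clustering and no comparison. Cells without a tag by the rule were left out.
A few single-gene results are not reported here.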

Additional observations from a re-analysis of the deposited data

Results flagged for a closer look

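Tags outside the sample sheet of the library, or with no cells in these comparisons, carried some counts in its tag matrix. Counts above the 3 that a count of 0 allows were seen for HT1 (973), HT3 (5), HT7 (14), HT11 (74), HT13 (19) and HT15 (5). HT14 with 2 counts and HT4, the tag listed as Nulliparous, with 1 count were below it. The tag rule did not include these tags, so whether they mark any cells was not examined.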

How the results depend on the processing

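With 1 pooled sample per name no replicate could be left out. No paired analysis was possible because each group had 1 sample and no test was made. The Gzmc/Itgae share of Balb/c cells was 33.2% with Scrublet calls kept, 37.8% at resolution 0.5, 31.6% at resolution 2.0, 30.2% clustered with all genes and 29.3% without granzyme and residency genes, above the 4 other samples each time. Classing cells by marker UMIs gave no such class. That classing gave 25.7% T-like, 25.2% NK-like, 6.46% macrophage-like, 1.27% ILC2-like, 1.44% pDC-like and 6.51% monocyte-like cells. Among cells outside the Gzmc/Itgae cluster the shares were 4.17% B-like, 32.2% T-like, 12.1% NK-like, 12.7% macrophage-like, 5.02% ILC2-like, 7.11% neutrophil-like, 3.33% pDC-like and 5.15% monocyte-like. The T-like share was 18.7% without granzyme and residency genes, and the NK-like share reversed to 4.18% with all genes. The macrophage-like share was 7.04% at 4 times the second tag and 6.25% at resolution 2.0. No monocyte-like class formed at resolution 0.5 or with all genes.

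Higher calls numbered 57 at a fold of 3, 697 without the Lactation sample and 120 with intervals apart. Lower calls numbered 6372 with no minimum, 132 at a fold of 3 and 142 with intervals apart. Of those 6372 calls, 5848 were in the Gzmc/Itgae cluster, where the Balb/c sum of 2766870 UMIs was the largest and its 3-count floor therefore the lowest. Median-of-ratios scaling moved the median log2 ratio of all genes by -0.14 in the Gzmc/Itgae cluster and -0.11 in the Cxcr3/Cd28 cluster. Of 96 named gene results, 96 kept direction and call under that scaling, 76 at a fold of 3 and 91 at 4 times the second tag, and 0 reversed in any setting run. These results were picked for lying outside all 4 other samples. Changing the minimum or the fold, or leaving out Lactation, therefore could not reverse them. The smallest sums limit the calls: 23 naive T-like and 31 B-like cells in Lactation, whose tag left 797 of 1598 cells under 5 counts.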
